A study of Mus musculus with 4 samples.

Results

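The genes described here are 33 genes that mark endothelial cells, the cells lining blood vessels, or that act in their growth, measured in mouse pancreatic islets. They were taken as a fixed list by symbol, and each was found on the arrays through the accession of its probe, with the brightest probe used where a gene had several. All 33 had a probe, and all but Flt4, 32 genes, were measured. Measured means that the signal was well above background on each array of 1 group or of both, as it was for 26378 genes in all. Of these, 15825 had a symbol. The others are accessions without a symbol, each counted as a gene wherever all genes are named. The islets came from Pdx1-Cre mice, called wild type in the sample titles, and from Pdx1-Cre:Rbf/f mice, which carry floxed Rb alleles and are called Rb-deficient. The Cre transgene was thus present in both groups. Each group had 2 samples with 1 array each. Age, sex, strain and the number of mice behind a sample are not given in the sources used here, so the tests measure the spread between these samples only.

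Islets are richly supplied with capillaries whose endothelium is thin and fenestrated, so that hormones pass quickly into the blood. Vascular endothelial growth factor A, made in islets mainly by beta cells, binds receptors on these endothelial cells and maintains them, and a second receptor system, the Tie receptors with their angiopoietin ligands, sets vessel stability. Endothelial identity is held by transcription factors of the ETS and SOX F families. Pdx1-Cre acts in cells of the pancreatic epithelium, a lineage that does not include the endothelium.

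Signal is given as log2 of the processed intensity minus the 75th percentile of the array, so a value of 0 is the level of that percentile and a step of 1 is 2-fold. Rb1, which encodes the retinoblastoma protein, had values of 0.28 and 0.86 in wild type and -0.48 and -0.90 in Rb-deficient islets, so both Rb-deficient arrays lay below both wild type arrays. Whether its probe lies in the deleted part is not known here, so it does not check the genotype. Wild type array 1 stood apart in 2 ways. On it 76.5% of probes were well above background, against 59.0% to 59.9% on the other 3 arrays, and it alone had Y-linked signal (Ddx3y, Eif2s3y, Kdm5d and Uty) and no Xist well above background. Sex was thus not balanced between the groups. The median of the list, its count of lower genes and the endothelial genes that differed by 2-fold or more are given without this array as well. All 12 beta cell markers were measured, and so were all 12 acinar and all 18 macrophage markers, so markers of exocrine and blood cells were present beside those of islet cells.

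Endothelial genes differed little in mean signal between the groups. Of the 32 genes measured, 28 differed by less than 1.5-fold in either direction, against 77.1% of all genes. The groups overlapped for 21 of the 32. Over all genes, groups without overlap made up 15.3% upward and 20.7% downward, so the count of 21 is near the share of all genes. The median log2 difference, Rb-deficient minus wild type, was 0.18, against -0.07 over all genes and 0.015 over genes with a symbol. The mean was higher in Rb-deficient islets for 22 genes and lower for 10. Over all genes 41.9% had a higher mean, and 52.5% over the genes with a symbol. When arrays were scaled to their median, 2 of 32 were lower. That scaling moved the median of all genes from -0.07 to 0.37 and that of the list from 0.18 to 0.61. The count of 28 thus does not carry over to it. Without wild type array 1 the median of the list was 0.19, with 9 of 33 genes lower.

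None of the 32 genes passed the test. With limma and p values adjusted by Benjamini-Hochberg across the whole table, 0 of 32 were called at an adjusted p under 0.05, as were 0% of all genes. Their adjusted p values in limma ran from 0.845 to 0.991. At an unadjusted p under 0.05 limma had 1 endothelial gene, Lyve1, among higher ones, where the share of all genes was 1.48%, and 0 among lower ones, where it was 4.18%. For 17 of the 32 genes the 95% interval of the difference lay within 2-fold in both directions, against 50.7% of all genes, and for 31 it held 0. A miss of the threshold with 2 arrays a group does not show that a gene was alike in both. An exact permutation test of 2 against 2 values cannot give a p below 0.333 and was not used. In whole-islet RNA, a change in the number of endothelial cells and a change in RNA per endothelial cell cannot be told apart.

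**Figure D1:**
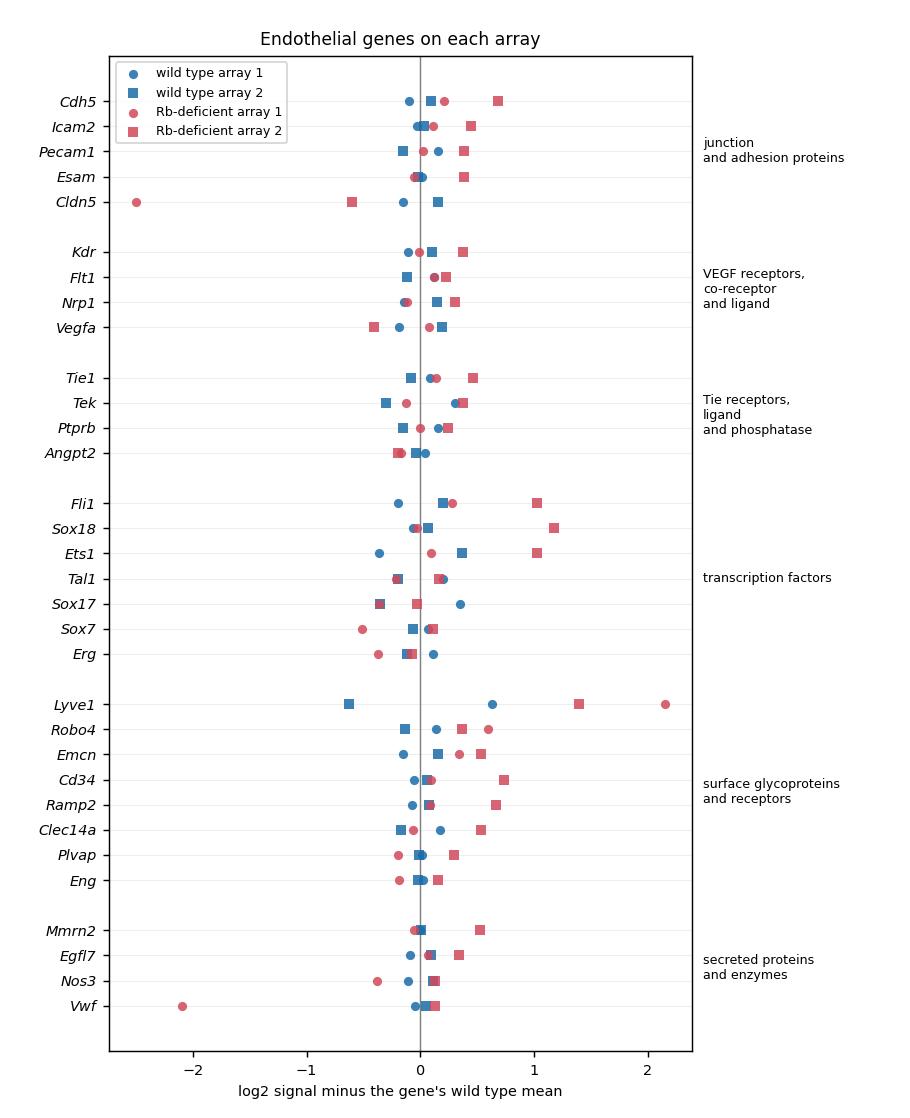
Log2 signal of each of the 32 measured endothelial genes on each array, minus the mean of its 2 wild type arrays, in groups by role. Blue points are wild type and red points Rb-deficient arrays, circles array 1 and squares array 2. Most points lie within 1 of the wild type mean, red squares are the rightmost point in 24 of 32 rows, and Cldn5, Vwf and Lyve1 reach beyond 2 on Rb-deficient array 1.

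Both Rb-deficient arrays lay above both wild type arrays for 9 genes, Lyve1, Fli1, Robo4, Cdh5, Emcn, Cd34, Ramp2, Tie1 and Icam2. Over all genes this share was 15.3%, and 19.8% over genes with a symbol. They lay below both for 2 genes, Cldn5 and Angpt2, where the shares were 20.7% and 17.6%. With scaling to the array median the counts were 13 and 0, where all genes had shares of 30.5% and 7.12%. A difference of 2-fold or more was seen in 1 gene upward, Lyve1, against 1.7% of all genes, and in 1 gene downward, Cldn5, against 8.03%. Cldn5 was not well above background on Rb-deficient array 1, and its log2 difference was -0.60 without that array.

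Promoters are shown for the 5 of these 11 genes that have an entry in the RefSeq promoter table used here (build GRCm38.p6). Each window runs from 250 bases before to 50 after the gene's start and is written 5′ to 3′ on the gene's strand. Capitals mark GGAA, the core that ETS factors such as Erg, Fli1 and Ets1 bind, on either strand (TTCC is the same core read on the other strand).
Robo4 (chr9:37401722-37402021, + strand): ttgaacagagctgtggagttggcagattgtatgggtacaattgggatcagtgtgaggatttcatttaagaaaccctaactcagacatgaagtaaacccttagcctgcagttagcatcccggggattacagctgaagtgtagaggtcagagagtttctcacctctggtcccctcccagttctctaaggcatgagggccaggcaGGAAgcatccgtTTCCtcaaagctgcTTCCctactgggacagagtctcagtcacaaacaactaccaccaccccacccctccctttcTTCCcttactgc
Emcn (chr3:137340828-137341127, + strand): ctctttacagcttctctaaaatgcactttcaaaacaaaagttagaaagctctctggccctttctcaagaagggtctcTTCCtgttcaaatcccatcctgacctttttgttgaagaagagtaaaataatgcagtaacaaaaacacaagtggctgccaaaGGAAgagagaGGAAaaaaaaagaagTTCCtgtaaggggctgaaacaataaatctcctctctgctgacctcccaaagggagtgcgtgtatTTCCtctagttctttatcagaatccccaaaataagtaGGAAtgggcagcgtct
Cd34 (chr1:194938571-194938870, + strand): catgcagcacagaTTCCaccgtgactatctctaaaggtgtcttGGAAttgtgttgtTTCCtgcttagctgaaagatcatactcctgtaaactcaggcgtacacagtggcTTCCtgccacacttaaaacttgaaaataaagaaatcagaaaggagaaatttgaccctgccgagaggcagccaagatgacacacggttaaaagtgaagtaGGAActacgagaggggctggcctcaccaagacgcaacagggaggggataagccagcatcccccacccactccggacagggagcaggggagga
Tie1 (chr4:118489800-118490099, - strand): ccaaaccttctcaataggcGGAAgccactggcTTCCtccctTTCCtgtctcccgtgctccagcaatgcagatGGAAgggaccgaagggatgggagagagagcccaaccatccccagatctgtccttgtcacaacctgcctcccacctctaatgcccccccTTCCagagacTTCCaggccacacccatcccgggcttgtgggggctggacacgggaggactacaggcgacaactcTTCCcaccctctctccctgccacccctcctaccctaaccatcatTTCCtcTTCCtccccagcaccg
Cldn5 (chr16:18776597-18776896, + strand): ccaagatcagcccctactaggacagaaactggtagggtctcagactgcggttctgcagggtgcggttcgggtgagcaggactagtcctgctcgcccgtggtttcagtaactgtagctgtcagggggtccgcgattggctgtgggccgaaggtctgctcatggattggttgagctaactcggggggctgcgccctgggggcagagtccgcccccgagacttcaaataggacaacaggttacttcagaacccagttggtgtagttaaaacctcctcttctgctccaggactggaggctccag
Tie1 held 9 such cores, Emcn 6, Cd34 5, Robo4 4 and Cldn5 0. The core is common, and 96.0% of the 32851 promoter windows of this table hold it, with a median of 3 per window. Of the 22 windows of the 16 endothelial genes with an entry, 21 held it, with a median of 4. The longer AACAGGAA, which contains the core and is a composite of a forkhead and an ETS site, was found in 2.65% of all windows and in 2 of these 22, those of Egfl7 and Emcn. GGAAGT was found in 23.8% of all windows and 7 of the 22. TTCCCGC, part of the site bound by E2F, the factor that Rb restrains, overlaps the same core and was found in 4.60% of all windows and 3 of the 22, at Egfl7, Nrp1 and Tal1. These are matches of letters and not measured binding.

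Of 5 genes of cell junctions and adhesion, 4 had higher means in Rb-deficient islets and 1, Cldn5, a lower mean. Cdh5 encodes VE-cadherin, which holds endothelial cells together at adherens junctions. Its values were -0.96 and -0.76 in wild type and -0.65 and -0.17 in Rb-deficient islets. The groups did not overlap, but the gap between them was smaller than the gap between the Rb-deficient samples. The difference was 0.45 (standard error 0.25), which is 1.36-fold higher. It was 0.21 without Rb-deficient array 2 and 0.68 without Rb-deficient array 1. Icam2, an adhesion molecule for leukocytes, read 1.42 and 1.49 in wild type and 1.57 and 1.90 in Rb-deficient islets, a difference of 0.28, or 0.11 without Rb-deficient array 2. Pecam1, the junction protein CD31 widely used to stain vessels, had -1.34 and -1.65 in wild type and -1.47 and -1.12 in Rb-deficient islets. Its difference was 0.20 with a 95% interval from -0.48 to 0.88, and the groups overlapped. Esam, another junction protein, had 0.56 and 0.52 in wild type and 0.48 and 0.92 in Rb-deficient islets, so that its Rb-deficient values enclosed the wild type ones.

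Cldn5, the claudin of endothelial tight junctions, was lower in Rb-deficient islets on both arrays. It had -3.88 and -3.58 in wild type islets, and -6.23 and -4.33 on Rb-deficient arrays 1 and 2. On array 1 its probe was not well above background, so that only 1 of the 2 Rb-deficient arrays measured it. The filter kept the gene through its wild type values, so its direction is not a separate result. The value on array 1 lay below the lowest signal well above background there (-5.26), and the size of the difference rests on it. The fitted difference of -1.55 had a standard error of 0.72 and a 95% interval from -3.58 to 0.47. Limma gave it an adjusted p (Benjamini-Hochberg) of 0.863. The difference was -0.60 without Rb-deficient array 1, -1.70 without wild type array 1, -0.40 with normexp background correction and -0.68 with quantile normalization.

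Log2 differences of the measured VEGF receptors and their ligand lay between -0.16 and 0.18. Kdr, the main signalling receptor for VEGF-A, had 2.38 and 2.59 in wild type and 2.47 and 2.86 in Rb-deficient islets, a difference of 0.18. Flt1, a receptor that captures VEGF-A with little signalling, had 3.49 and 3.24 in wild type and 3.48 and 3.59 in Rb-deficient islets. Nrp1, a co-receptor, had 2.33 and 2.61 in wild type and 2.35 and 2.77 in Rb-deficient islets. It differed by 0.09, and its 3 probes gave differences from -0.0035 to 0.094. In these receptors the groups overlapped, and the 95% intervals stayed within 2-fold. Flt4, the receptor for VEGF-C found mostly on lymphatic vessels, was well above background on wild type array 2 and Rb-deficient array 2 only, with -4.87 and -4.74 there.

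Vegfa, the ligand, had 3.77 and 4.15 in wild type and 4.03 and 3.55 in Rb-deficient islets, with Rb-deficient array 2 the lowest of the 4. The groups overlapped and the difference was -0.16 (standard error 0.28), or 0.27 with scaling to the array median. Its 4 probes did not give the same value and ranged from -0.58 to 0.15. On 3 of these probes Rb-deficient array 2 was the lowest, the array on which Kdr and Flt1 were highest.

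Receptors of the Tie system were slightly higher in mean in Rb-deficient islets. Tie1, the orphan receptor of the pair, had -1.01 and -1.18 in wild type and -0.95 and -0.63 in Rb-deficient islets, a difference of 0.30 without overlap, and of 0.14 without Rb-deficient array 2. Tek, which encodes the angiopoietin receptor Tie2, had -2.01 and -2.62 in wild type and -2.45 and -1.95 in Rb-deficient islets. Here the wild type values enclosed one of the Rb-deficient values, and the difference was 0.12. Ptprb, the phosphatase VE-PTP that restrains Tie2, had 1.99 and 1.69 in wild type and 1.84 and 2.08 in Rb-deficient islets, with the same overlap. Angpt2, the ligand that mostly opposes Tie2 activation, had -0.38 and -0.46 in wild type and -0.59 and -0.62 in Rb-deficient islets. The values within each group lay close together, and the difference was -0.18 with a 95% interval from -0.67 to 0.31, or 0.25 with scaling to the array median.

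The transcription factors went both ways, with 3 of 7 higher in mean and 4 lower, although the 4 lower ones, Erg, Sox7, Sox17 and Tal1, were higher both with quantile normalization and with scaling to the array median. Fli1, an ETS factor also present in blood cells, had -3.07 and -2.68 in wild type and -2.60 and -1.85 in Rb-deficient islets, 1.57-fold higher without overlap. Its log2 difference of 0.65 was 0.27 without Rb-deficient array 2 and 0.37 with normexp background correction. Ets1, a related factor shared with lymphocytes, had -2.36 and -1.63 in wild type and -1.90 and -0.97 in Rb-deficient islets. The groups overlapped, and its 2 probes differed by 0.56 and 0.66. The first of these values was 0.09 without Rb-deficient array 2, 0.19 without wild type array 1, 1.024 without Rb-deficient array 1 and 0.93 without wild type array 2. Erg, the ETS factor most specific to endothelium of the 3, had -2.39 and -2.62 in wild type and -2.88 and -2.58 in Rb-deficient islets, a difference of -0.22. So Fli1 and Ets1 were highest on Rb-deficient array 2, and Erg was not.

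Of the SOX F factors, Sox18 had -0.83 and -0.70 in wild type islets, -0.80 on Rb-deficient array 1 and 0.41 on array 2. Its difference of 0.57 came from that last array, and it was -0.03 without it. Sox7 had -3.06 and -3.19 in wild type and -3.64 and -3.01 in Rb-deficient islets, and Sox17 had -2.69 and -3.39 against -3.41 and -3.08. Both differed by -0.20 with overlapping groups. For Sox17 a second, dimmer probe gave -0.82 but was well above background on wild type array 1 only. Tal1, a factor of blood and endothelial precursors, had -3.15 and -3.55 in wild type and -3.57 and -3.19 in Rb-deficient islets, a difference of -0.03.

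Surface glycoproteins held the most genes with higher values, 7 of 8, or 8 with scaling to the array median, with a median difference of 0.40. Robo4, a receptor that stabilises vessels, had 2.35 and 2.08 in wild type and 2.81 and 2.58 in Rb-deficient islets, 1.40-fold higher. It was one of 4 genes with Rb-deficient array 1 above array 2, beside Lyve1, Vegfa and Angpt2. Emcn, the sialoglycoprotein endomucin of capillaries and veins, had 2.65 and 2.96 in wild type and 3.14 and 3.34 in Rb-deficient islets, 1.35-fold higher. Cd34, a sialomucin shared with blood progenitors, had 1.72 and 1.83 in wild type and 1.88 and 2.51 in Rb-deficient islets. Its 2 probes differed by 0.41 and 0.57. Ramp2, the partner that makes Calcrl a receptor for adrenomedullin, had 2.33 and 2.47 in wild type and 2.49 and 3.06 in Rb-deficient islets. For both genes the lower Rb-deficient value lay next to the higher wild type value, and without Rb-deficient array 2 the differences were 0.10 for Cd34 and 0.09 for Ramp2, against 0.41 and 0.38 with it.

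Plvap, the protein of the diaphragms that span endothelial fenestrae, had 3.46 and 3.43 in wild type and 3.25 and 3.74 in Rb-deficient islets. The wild type values lay between those of the Rb-deficient samples. Its difference was 0.05 with a 95% interval from -0.65 to 0.75, and it was -0.01 with quantile normalization. Eng, the TGF-beta co-receptor endoglin, had 0.62 and 0.58 in wild type and 0.41 and 0.75 in Rb-deficient islets. It differed by -0.01 with an interval from -0.61 to 0.58. Clec14a, a lectin that binds multimerin 2, had -2.49 and -2.83 in wild type and -2.73 and -2.13 in Rb-deficient islets. Mmrn2, which encodes that multimerin, had 2.59 and 2.60 in wild type and 2.54 and 3.12 in Rb-deficient islets. Both differed by 0.23, with Rb-deficient array 2 the highest and the other Rb-deficient array within or below the wild type values.

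Lyve1, a hyaluronan receptor of lymphatic endothelium and of some tissue macrophages, had the largest difference. Its values were -1.13 and -2.39 in wild type and 0.39 and -0.37 in Rb-deficient islets. The groups did not overlap, although the wild type samples differed from each other by more than the Rb-deficient samples did. The difference was 1.77 (standard error 0.56), 3.41-fold higher, with a 95% interval from 0.19 to 3.35. In limma with Benjamini-Hochberg adjustment its p was 0.845, and over the alternatives the adjusted p ran from 0.00489, with scaling to the array median, to 1. Of the 32 genes it was the only one called under any of the 12 alternatives. That call came with scaling to the array median, where 480 of 26378 genes were called and the prior degrees of freedom were infinite. The Lyve1 difference was 2.40 without wild type array 1 and 1.14 without wild type array 2.

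Other lymphatic markers were mixed. Prox1, a transcription factor of lymphatic endothelium that islet cells also express, had 0.67 and 0.96 in wild type and 0.73 and 0.22 in Rb-deficient islets. Pdpn, podoplanin, differed by -0.08. Reln, an extracellular glycoprotein, had -2.73 and -4.41 in wild type and -1.22 and -0.41 in Rb-deficient islets, 6.73-fold higher. Its log2 difference of 2.75 was 1.52 with normexp background correction, 3.59 without wild type array 1 and 1.91 without wild type array 2, and limma called it with scaling to the array median only (adjusted p, Benjamini-Hochberg, 2.27e-06, against 0.760). That scaling called 480 genes in all. The other Reln probe was well above background on wild type array 1 only and gave 0.12. Ccl21a, Mmrn1 and Flt4 were not measured on both arrays of either group. Of the 7 lymphatic genes, Lyve1 among them, 4 were thus measured. These went 2 higher and 2 lower, or 4 higher with scaling to the array median. Their summed signal was 2.23 to 2.31 times the 75th percentile in wild type and 2.76 to 3.46 in Rb-deficient islets. Lyve1 and Prox1 are part of that sum, so it is not separate from their values. Macrophage markers had higher means in 16 of 18 cases, and in 16 to 18 over the scaling and background alternatives. Their summed signal was 50.5 and 51.2 in wild type and 57.5 and 58.7 in Rb-deficient islets. Itgam, the brightest marker and one of the 2 lower ones, weighs most in that sum. It had 5.15 and 5.05 in wild type and 5.23 and 4.43 in Rb-deficient islets. Relative to wild type the median of the macrophage markers was 0.33 on Rb-deficient array 1 and 1.34 on Rb-deficient array 2, whereas Lyve1 was higher on array 1. Among these markers, the largest differences without overlap and with signal well above background on all 4 arrays were those of Lyz2 (1.43), Adgre1 (1.34), Ctss (1.07) and C1qc (1.01), and none was called in limma. The part of either cell type in the Lyve1 signal was not tested.

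**Figure D2:**
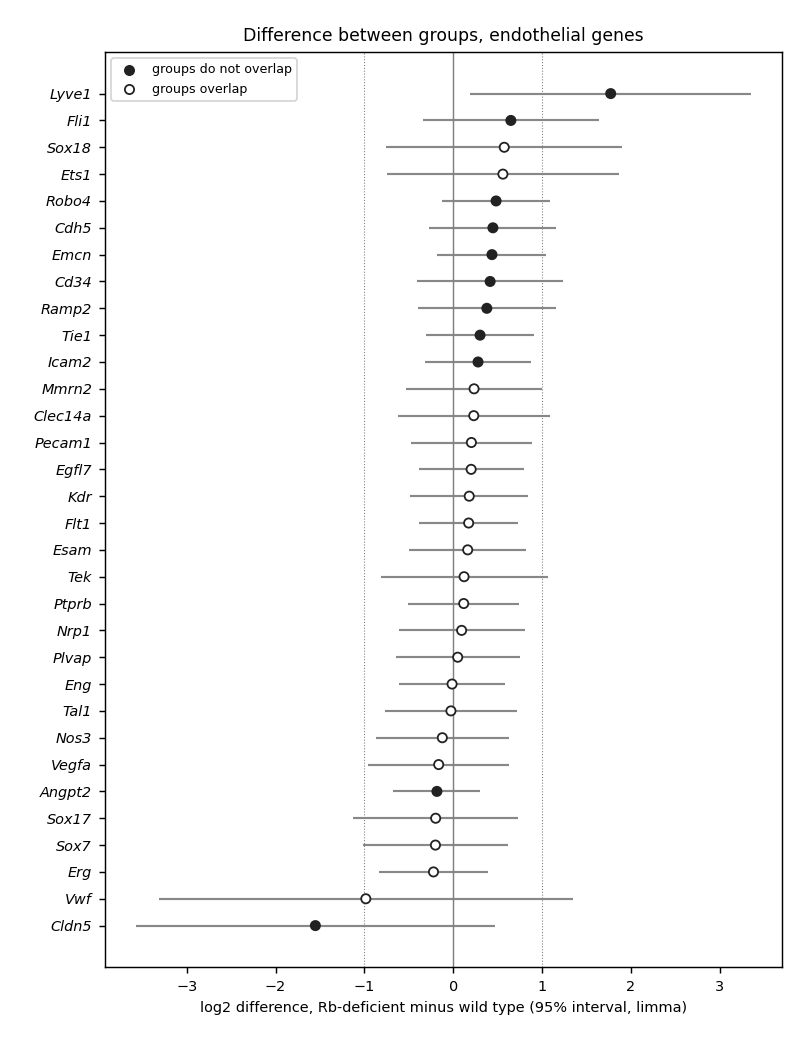
Log2 difference of each endothelial gene, Rb-deficient minus wild type, with its 95% interval from limma. Filled points are genes whose groups do not overlap, open points those that overlap, and dotted lines mark 2-fold. The interval of Lyve1 alone leaves out 0, and those of Cldn5 and Vwf are the widest.

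Of the secreted proteins and enzymes, Egfl7 and Mmrn2 had higher means in Rb-deficient islets, and Vwf and Nos3 lower ones. Egfl7, a matrix protein secreted by endothelial cells, had 3.70 and 3.89 in wild type and 3.86 and 4.13 in Rb-deficient islets. Nos3, endothelial nitric oxide synthase, had 0.41 and 0.63 in wild type and 0.14 and 0.65 in Rb-deficient islets, a difference of -0.12, or 0.31 with scaling to the array median. Vwf, von Willebrand factor, stored in endothelial granules and in platelets, had -2.51 and -2.42 in wild type islets, and -4.56 and -2.33 on Rb-deficient arrays 1 and 2. One Rb-deficient sample was thus close to the wild type samples and the other far below them. The difference of -0.98 had a standard error of 0.82, and it was 0.13 without Rb-deficient array 1, -2.10 without Rb-deficient array 2, -1.03 without wild type array 1 and -0.42 with normexp background correction. The median of 5 platelet markers relative to the wild type mean was -0.31 on Rb-deficient array 1 and -0.06 on array 2, and the part of platelets in the Vwf signal was not tested.

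Over the endothelial genes the median absolute gap between the arrays of a group was 0.46 in Rb-deficient and 0.22 in wild type islets, against 0.31 and 0.28 over all genes. Rb-deficient array 2 had the highest value of all 4 arrays for 24 of 32 endothelial genes, against 27.4% of all genes. It lay above Rb-deficient array 1 for 28 of 32 genes, against 44.1% of all genes. With normexp background correction, quantile normalization and scaling to the array median, alternatives added after the data were seen, that count was 26, 28 and 30, where 38.6%, 51.4% and 65.7% of all genes were higher on array 2. The median gap, array 2 minus array 1, was 0.41 over the endothelial genes and -0.06 over all genes. In wild type islets the same gap was -0.01 over the endothelial genes, with 16 of 32 higher on array 2. The median endothelial gene stood at -0.02 on Rb-deficient array 1 relative to the wild type mean, and at 0.37 on the other. Without Rb-deficient array 2 the median difference of the list was accordingly -0.02, with 18 of 32 genes lower.

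**Figure D3:**
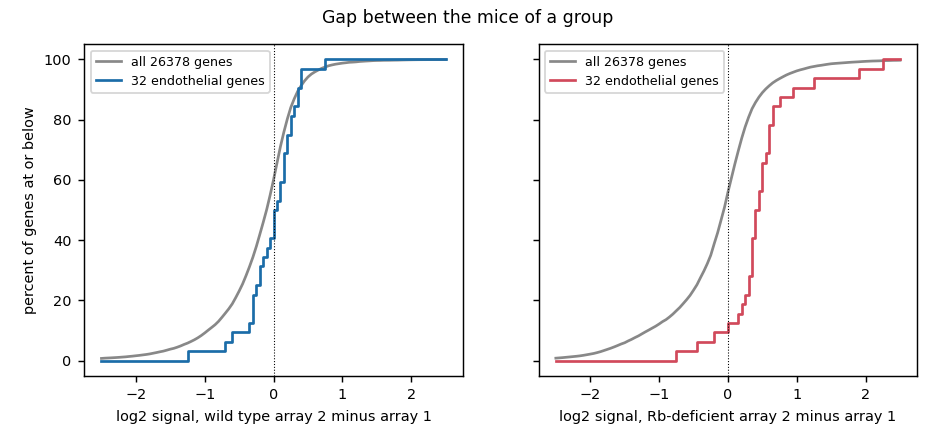
Percent of genes whose log2 signal on array 2 minus array 1 is at or below the value on the horizontal axis, for the wild type samples on the left and the Rb-deficient samples on the right. Grey lines are all 26378 genes and coloured lines the 32 endothelial genes. In wild type islets the endothelial line passes 0 near its middle, and in Rb-deficient islets it lies to the right of the grey line, with a median of 0.41.

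Markers of other cells differed between the Rb-deficient samples too. Macrophage markers were higher on Rb-deficient array 2 than on array 1 for 16 of 18 genes, pericyte and smooth muscle markers for 11 of 14, and fibroblast markers for 7 of 8, with 15 to 16, 11 to 13 and 7 to 8 over the scaling and background alternatives. Pericyte genes stood at -0.26 and 0.25 in median on Rb-deficient arrays 1 and 2, relative to the wild type mean, and fibroblast genes at -0.67 and 0.52. All 12 acinar genes were lower on array 2 than on array 1, with medians of -0.32 and -1.13 and a summed signal of 6556 and 3728, against 8941 and 7248 in wild type islets, and 0 or 1 of them was higher on array 2 under those alternatives. Beta cell genes were higher on array 2 in 3 of 12 cases (up to 5 under the alternatives), with medians of 0.12 and -0.09. Alpha, delta and PP cell genes were higher on array 2 in 4 of 9 cases. Among these, Ppy had 6.30 and 9.28 on Rb-deficient arrays 1 and 2, and Pyy 5.70 and 8.64, while Gcg had 9.26 and 7.96. Red blood cell genes were higher on array 2 in 4 of 4 cases. Their summed signal was 42.4 and 86.0, against 79.5 and 26.2 in wild type islets. The part of the cell makeup of each islet preparation in the endothelial values was not tested.

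**Figure D4:**
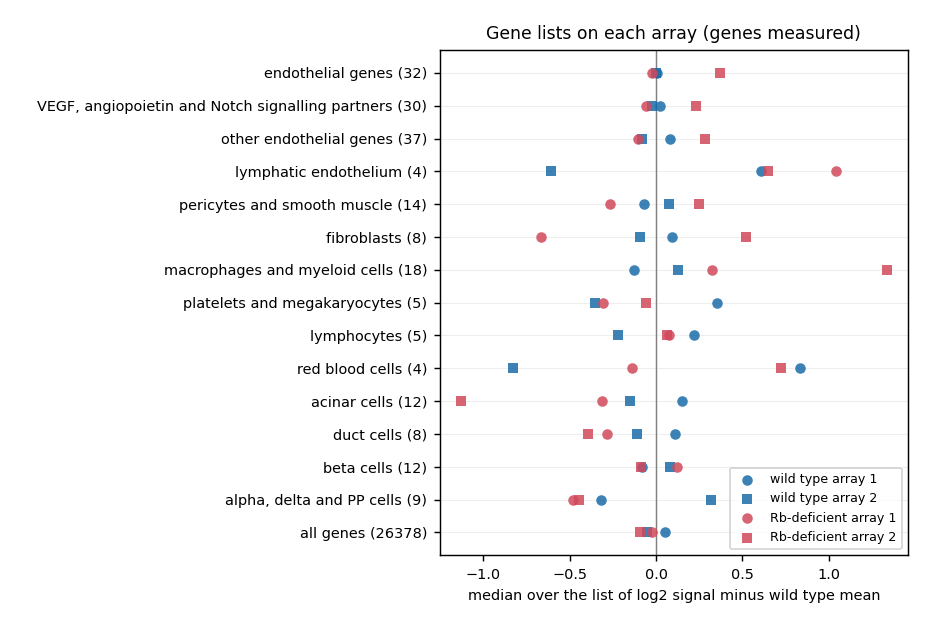
Median log2 signal of each gene list on each array, relative to the wild type mean of each gene, with the number of genes measured in brackets. The endothelial, pericyte, fibroblast and macrophage lists lie farther right on Rb-deficient array 2 (red squares) than on array 1 (red circles), and the acinar list lies farther left, at -1.13 against -0.32.

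Signalling partners of the endothelial receptors repeated the small differences. Of 33 VEGF, angiopoietin, Notch and related genes, 30 were measured. Limma called 0 of them, as it did 0 of all genes. Means were higher for 20 and lower for 10 (28 and 2 with scaling to the array median), with a median difference of 0.11. Over all genes 41.9% had a higher mean, or 75.3% with that scaling. Both Rb-deficient arrays lay above both wild type arrays for 5, against 15.3% of all genes, and below both for 1, against 20.7%. Angptl4, a secreted inhibitor of lipoprotein lipase, had -1.06 and -1.72 in wild type and -3.16 and -2.36 in Rb-deficient islets, 2.58-fold lower without overlap. Its log2 difference of -1.37 was -0.86 with normexp background correction and -1.04 without wild type array 1. Vegfd, a growth factor for lymphatic vessels, was 1.61-fold higher. Its log2 difference of 0.69 was 0.43 without Rb-deficient array 2. A second Vegfd probe, well above background on wild type array 1 and Rb-deficient array 2 only, gave -0.045. Esm1, the tip cell proteoglycan endocan, was 1.25-fold higher. Jag2, a Notch ligand, was 1.24-fold higher. The log2 difference of Esm1, 0.33, was 0.11 without wild type array 1, and that of Jag2, 0.31, was 0.14 without Rb-deficient array 2. Angptl4 had an unadjusted p of 0.0315 and an adjusted p (limma, Benjamini-Hochberg) of 0.818. On Rb-deficient array 2, 23 of the 30 genes were higher than on array 1, against 44.1% of all genes.

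Of 40 further endothelial genes, 37 were measured. Limma called 0 of them, as it did 0 of all genes. Means were higher for 22 and lower for 15 (35 and 2 with scaling to the array median), with a median difference of 0.13. Over all genes 41.9% had a higher mean, or 75.3% with that scaling. Both Rb-deficient arrays lay above both wild type arrays for 8, Icam1 among them, against 15.3% of all genes. They lay below both for 3, Gja5 (-0.53), Procr (-0.41) and Nid2 (-0.33), against 20.7%. Vcam1, an adhesion molecule that inflamed endothelium displays for leukocytes and that other stromal cells also make, differed most among those well above background on all 4 arrays without overlap. Its values were -3.21 and -3.89 in wild type and -1.67 and -1.18 in Rb-deficient islets, 4.37-fold higher. The gap between the groups exceeded the gap within either, and limma gave an unadjusted p of 0.00422 and an adjusted p (Benjamini-Hochberg) of 0.516. Over the alternatives the adjusted p ran from 0.000431, with scaling to the array median, to 0.976. With scaling to the array median limma called 480 genes in all. The log2 difference of Vcam1, 2.13, was 1.13 with normexp background correction and 2.47 without wild type array 1. Its second probe was not well above background on any array. Cd93, a receptor that binds multimerin 2, was 1.53-fold higher, Gimap4, a GTPase shared with lymphocytes, 1.54-fold and Gpihbp1, which carries lipoprotein lipase across capillaries, 1.51-fold, each without overlap. The log2 differences of Gimap4 and Gpihbp1 were 0.25 and 0.34 without Rb-deficient array 2, against 0.62 and 0.60 with it. Icam1, another adhesion molecule of inflamed endothelium, was named after its values were seen. It was well above background on both Rb-deficient arrays and on neither wild type array. The filter kept it through the Rb-deficient arrays, so its direction is not a separate result. Its Rb-deficient mean was 2.28-fold above the mean of the lowest signals well above background on the wild type arrays, which holds for this background correction only. The adjusted p of Icam1 in limma (Benjamini-Hochberg) was 0.863, from a fit that includes its wild type values below background, so no call is read from it. The fitted log2 difference was 0.32 with normexp background correction and 3.28 without wild type array 1. On the Rb-deficient arrays the macrophage list stood at 0.33 and 1.34, and its part in these values was not tested.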

How the data were processed

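RNA of 4 islet samples was amplified, labelled and hybridised to 4 Agilent arrays of 1 colour on 1 slide, per the labels' protocols and the file headers. The scanner files that the authors deposited give the background-subtracted intensity of every spot, as read by Agilent Feature Extraction 12.0.3.1, and are not scaled across arrays. The deposited flags of a spot (other) are 0 or 1. No spot was saturated. Accessions named 32994 of 56605 probes through a RefSeq table (GRCm38.p6). The array design was annotated on mm9 per the file headers, and its probe positions are not given. Promoter positions are those of the RefSeq table.

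Values were log2 of the processed intensity minus the 75th percentile over non-control spots, with outlier spots (64 to 93 an array) left out and spots of a probe averaged. Probes whose spots were well above background throughout 1 group or both were kept, 33850 in all, and the brightest probe stood for a gene. Groups came from the sample titles. limma 3.58.1 in R 4.3.3 (lmFit, eBayes, two-sided, no covariates) was fitted over all genes, with Benjamini-Hochberg adjustment and a threshold of 0.05. It had 2 residual degrees of freedom and a prior worth 1.82. The scripts were tested on simulated data. The number of arrays limits the precision.

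Members, gene lists and tests were chosen with earlier results of these data known. Named genes are Rb1, every listed endothelial gene and some genes of each other list. The latter are at most 4 genes with the largest difference among those measured on all arrays without overlap, of which the text names a part. Gja5, Procr, Nid2, Ppy and Pyy were named besides these, after their values were seen. The normexp alternative used the median spot signal and median background with an offset of 50, because the files hold no mean signal column. The deposited value table was the processed intensity times a constant per array (1.74 to 2.49), on a linear scale and not centred, with column medians of 220.06, 180.7, 188.3 and 157.33, and the statistic behind the constants is unknown.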

Additional observations from a re-analysis of the deposited data

How the results depend on the processing

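Each result was recomputed under 12 alternatives, keeping the probe of a gene where it passed. Of 383 recomputed differences of endothelial genes, 347 kept their direction and their side of the threshold, 35 changed sign and 1, Lyve1 with scaling to the array median, passed it, and 14 of the 32 genes never changed sign. The difference of Rb1 kept its sign throughout. Scaling to the array median added a constant to every difference. Its prior degrees of freedom were infinite. It gave 480 genes called, 1 endothelial gene called, a list median of 0.61 and 2 lower endothelial genes, with signs changed for Angpt2 (0.25), Eng (0.42), Erg (0.22), Nos3 (0.31), Sox17 (0.24), Sox7 (0.24), Tal1 (0.41) and Vegfa (0.27). The list median minus that of all genes was 0.24 with it and without it, and over the alternatives lay between -0.0062 and 0.48. Quantile normalization changed the sign of Erg (0.073), Plvap (-0.012), Sox17 (0.17), Sox7 (0.25) and Tal1 (0.44), and the cause was not tested.

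With 1 array left out, the lone array of a group is assumed to vary like the other group. The list median lay between -0.022 and 0.37, the count of lower endothelial genes between 5 and 18, and the count of genes called between 0 and 4092. The last value came without wild type array 2, where 4075 of the calls were lower and 0 were endothelial genes. Differences of genes that changed sign ranged from -0.068 to 0.53 for Clec14a, -0.19 to 0.16 for Eng, -0.055 to 0.38 for Esam, -0.015 to 0.37 for Kdr, -0.055 to 0.52 for Mmrn2, -0.38 to 0.13 for Nos3, -0.12 to 0.30 for Nrp1, -0.20 to 0.29 for Plvap, -0.033 to 0.27 for Ptprb, -0.55 to 0.15 for Sox17, -0.028 to 1.18 for Sox18, -0.51 to 0.11 for Sox7, -0.23 to 0.17 for Tal1, -0.18 to 0.43 for Tek, -0.40 to 0.075 for Vegfa and -2.10 to 0.13 for Vwf. Without wild type array 1, 14 endothelial genes were above the remaining wild type value on both Rb-deficient arrays, against 27.5% of all genes.

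The labels do not say whether equal replicate numbers in the titles mark samples that belong together. With the replicate number as a block (replicate block) the list median was 0.18 and 0 genes were called, and the deviations of equally numbered arrays correlated at 0.295 over all genes, which with 2 pairs does not settle it. Cldn5, below background on 1 array, has no value under the filter for signal on all arrays.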
